A study of Danio rerio with 4 samples.

Results

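The data compared here describe the changes that took place in wild-type zebrafish embryos between the end of gastrulation and the first somites. They are read as the signal of each probe set on the wild-type 3-ss (3-somite stage, 11 hpf) array over that on the wild-type 90% epiboly (9 hpf) array. These are 2 of the 4 arrays analysed, and the other two hold en-pou5f3 embryos of the same stages, which carry the repressor domain of Drosophila Engrailed fused to Pou5f3 under a heat shock promoter. All embryos were of the RW strain and came from crosses of hemizygous transgenic fish with wild-type fish, so that the wild-type embryos are siblings without the transgene, told apart by genotyping each embryo. Both wild-type groups were heat-shocked too: embryos raised at 25°C, per the labels, were held at 37°C for 60 min at the named stage and developed for another 30 min. RNA was taken 90 min after the stage that names the sample, and per the labels none of the arrays holds embryos without heat shock. Supplementary tables of the study head their signal columns with heat shock minus and plus, which does not match those labels, and the labels are followed here. Each array was made from 250 ng of RNA of 1 pool of more than 5 whole embryos, and with 1 array per stage no difference has a replicate check and no test or p-value can be given.

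At 90% epiboly the cell sheets of the gastrula have almost enclosed the yolk, the organizer has given way to prechordal plate and notochord precursors, and the neural plate carries coarse anteroposterior domains. By 3-ss the tailbud has formed, the first somites have been cut off the presomitic mesoderm, neural crest is specified at the border of the neural plate, and the first neurons leave the cell cycle. These descriptions are of the stages at which heat shock began, and the embryos on the arrays were 90 min older. Much of the transition is a change of transcription factors and signals, as gastrula regulators are cleared and tissue-specific genes begin to be transcribed. Pou5f3, the zebrafish POU factor related to mammalian Oct4, belongs to the early regulators.

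Of 15502 probe sets, 11815 reached 32.4 on at least 1 of the wild-type arrays, a floor set at the 95th percentile of the signals of 20 control probe sets without a zebrafish target. Signals are in the arbitrary units of the array scaling, and those under the floor were set to it before the log2 ratio of 3-ss over 90% epiboly was taken. A fold with 1 signal under the floor is a bound, written as at least, and none is given where both lie under it. The only measure of error is the SD of the log2 ratio between probe sets of the same gene, 0.40 over 1019 genes (1.32-fold), which holds no variation between embryos or pools. In whole embryos a change in the number of cells of a type and a change in RNA per cell cannot be told apart.

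More probe sets were higher than lower at 3-ss. At least 2-fold higher were 945 probe sets (8.00% of those measured) and at least 2-fold lower 469 (3.97%), while 8318 stayed within 1.5-fold. At 4-fold the counts were 160 higher and 55 lower, and with a floor taken from the median control signal in place of the 95th percentile, 1759 higher and 1224 lower passed 2-fold. The median log2 ratio over all measured probe sets was 0.02. As the arrays are scaled to the same trimmed mean, this median cannot show where the surplus of increases lay. With quantile normalization the surplus was smaller, with 821 probe sets higher and 601 lower at 2-fold. Probe sets that were higher had a median signal of 255 at 3-ss and 75.6 at 90% epiboly, and those that were lower 125 at 3-ss and 339 at 90% epiboly. Among the increases, 171 probe sets were under the floor at 90% epiboly, and among the decreases 56 were under it at 3-ss. A signal under the floor does not show that a gene was off. With each gene taken as its brightest probe set, 614 of 7412 measured genes (8.28%) were at least 2-fold higher and 284 (3.83%) at least 2-fold lower, and these shares are the background for every gene group below.

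**Figure D1:**
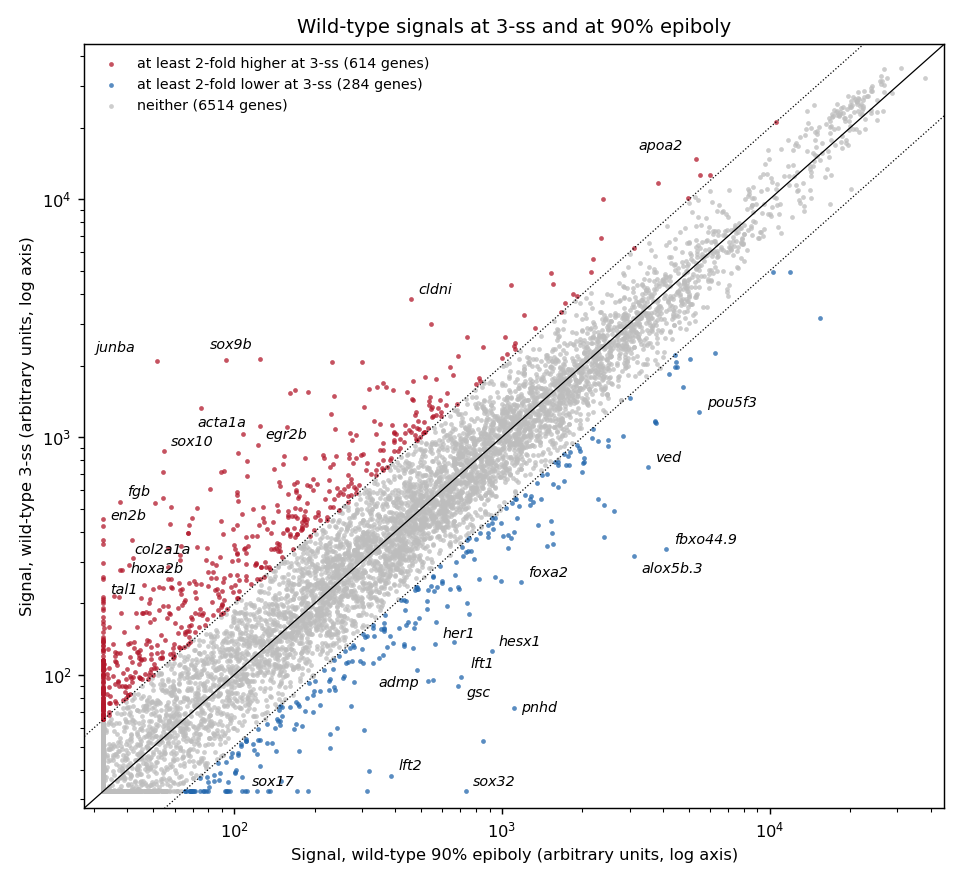
Signal of each measured gene on the wild-type 3-ss array (vertical axis) against the wild-type 90% epiboly array (horizontal axis), both in arbitrary units on log axes, with signals under 32.4 drawn at that floor. Red points (614 genes) were at least 2-fold higher at 3-ss, blue points (284) at least 2-fold lower and grey points neither; the solid line marks equal signals, the dotted lines 2-fold, and most genes lie between the dotted lines.

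The largest increases joined genes of AP-1 and stress signalling with genes of neural crest, muscle and liver-type secretion. The gene with the largest ratio was junba, which encodes an AP-1 subunit, with a signal of 2085 at 3-ss and 51.4 at 90% epiboly (40.6-fold higher). Its partner fosab, a Fos protein, measured 1531 at 3-ss and 162 at 90% epiboly (9.48-fold higher), and dusp5, a phosphatase that acts on ERK, was 8.88-fold higher (369.7 at 3-ss, 41.6 at 90% epiboly). Genes usually associated with immune responses were in the same range: irg1l, homologous to the mammalian immune-responsive gene 1, measured 2126 at 3-ss and 125 at 90% epiboly (17.0-fold higher). The interferon regulatory factor irf1b was 10.3-fold higher (555 at 3-ss, 54.1 at 90% epiboly) and the chemokine cxcl14 9.35-fold higher (1581 at 3-ss, 169 at 90% epiboly). Per the labels both stages received the same heat shock, so these differences are between embryos heat-shocked at 3-ss and embryos heat-shocked at 90% epiboly, and what unshocked embryos would show was not measured. Tissue genes made up the rest of this group. The crest regulators were sox9b (2119 at 3-ss, 93.2 at 90% epiboly, 22.7-fold higher) and sox10 (874 at 3-ss, 54.7 at 90% epiboly, 16.0-fold higher). Skeletal muscle actin acta1a measured 1333 at 3-ss and 75.1 at 90% epiboly (17.8-fold higher). The fibrinogen chain fgb measured 535 at 3-ss and 37.5 at 90% epiboly (14.3-fold higher) and the neural POU gene pou3f2b 713 at 3-ss and 54.2 at 90% epiboly (13.1-fold higher). The xenobiotic oxidase cyp1a was 10.4-fold higher, the apolipoprotein apom 8.90-fold higher and the heparin-binding growth factor mdka 8.86-fold higher. The last of the largest increases, fam168a, was 9.54-fold higher by 1 probe set (1029 at 3-ss, 108 at 90% epiboly), while its other probe sets were dim.

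Genes over the floor only at 3-ss included regulators of the midbrain-hindbrain boundary, hindbrain and blood. The engrailed gene en2b, which marks the midbrain-hindbrain boundary, measured 424 at 3-ss, against 6.07 at 90% epiboly (at least 13.1-fold higher). The homeodomain factor hnf1bb, which acts in the caudal hindbrain and the pronephros, measured 356 at 3-ss, against 31.1 at 90% epiboly (at least 10.98-fold higher). The blood and endothelial regulator tal1 was at least 6.44-fold higher (209 at 3-ss, 5.53 at 90% epiboly). Muscle genes followed, with xirp1, which binds actin filaments, at least 11.4-fold higher and the troponin C gene tnnc2.2 at least 6.55-fold higher. The Cdc42 effector cdc42ep3 was at least 14.03-fold higher, the nucleoside diphosphate kinase nme2a at least 9.13-fold higher, the IGF-binding protein igfbp2a at least 7.97-fold higher and the RNA-binding repressor nanos1 at least 7.84-fold higher. A probe set of fundc2 was at least 10.3-fold higher, but the brighter probe set of that gene had a log2 ratio of -0.42.

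The decreases were led by genes of the gastrula. Signals under the floor at 3-ss were found for sox32, the Sox factor that specifies endoderm, which measured 22.1 at 3-ss, against 735 at 90% epiboly (at least 22.7-fold lower). The same was true of sox17, which acts downstream of it (14.3 at 3-ss, 109.6 at 90% epiboly, at least 3.38-fold lower). Both Lefty genes, which encode Nodal antagonists, were low at 3-ss: lft2 measured 37.8 at 3-ss and 386 at 90% epiboly (10.2-fold lower) and lft1 98.1 at 3-ss and 705 at 90% epiboly (7.19-fold lower). The organizer homeobox gene gsc was 7.61-fold lower (90.0 at 3-ss, 685 at 90% epiboly) and the dorsally expressed BMP ligand admp 5.78-fold lower (95.4 at 3-ss, 552 at 90% epiboly). Others of this size were pnhd (72.5 at 3-ss, 1112 at 90% epiboly, 15.3-fold lower), which encodes a secreted cystine-knot protein, and the forebrain repressor hesx1 (126 at 3-ss, 916 at 90% epiboly, 7.29-fold lower). The neural plate gene foxd5 was 6.30-fold lower (382 at 3-ss, 2403 at 90% epiboly). The PR-domain gene prdm14 was 8.05-fold lower (39.6 at 3-ss, 319 at 90% epiboly) and the anti-apoptotic bcl2l10 5.34-fold lower (490.1 at 3-ss, 2616 at 90% epiboly). Bright transcripts were among them, since the F-box gene fbxo44.9 measured 338 at 3-ss and 4116 at 90% epiboly (12.2-fold lower) and the lipoxygenase gene alox5b.3 315 at 3-ss and 3119.8 at 90% epiboly (9.89-fold lower). The calcium-binding protein gene s100a1 was 5.59-fold lower and the unnamed si:ch211-152c8.5 5.20-fold lower. The largest decrease among probe sets over the floor on both arrays, that of one of 3 probe sets of the signalosome gene cops4, was 16.2-fold. This probe set shares probes with other transcripts and the other probe sets of cops4 had log2 ratios of 0.17 and 2.49, so no direction is given for that gene. Of tbx16, the T-box gene of gastrula mesoderm, the dimmer probe set was 5.97-fold lower (184 at 3-ss, 1102 at 90% epiboly) and the brighter one 2.06-fold lower. Genes of other functions were under the floor at 3-ss as well: the tryptophan hydroxylase gene tph1b was at least 5.84-fold lower, the kinesin kif5aa at least 5.31-fold lower and the urea transporter slc14a2 at least 4.18-fold lower. The homeobox gene nkx2.9 was at least 4.14-fold lower and the receptor gene lingo1b at least 3.77-fold lower. Among genes without a known function, zgc:152968 was at least 9.64-fold lower, while si:zfos-905g2.1 was at least 3.44-fold lower and wu:fl05b04 was at least 3.301-fold lower.

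**Figure D2:**
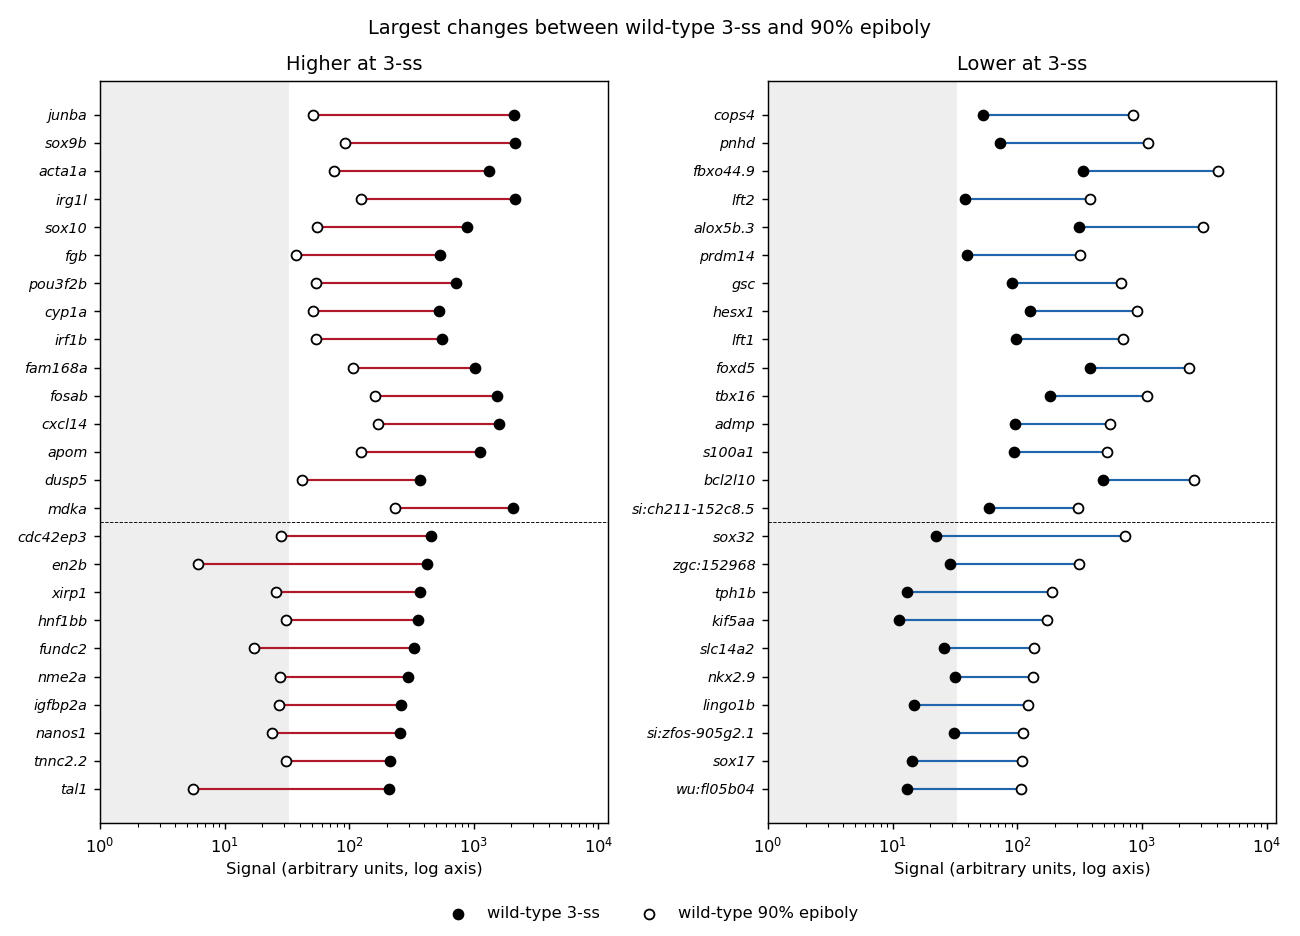
Signals of the 15 largest changes measured at both stages (above the dashed line) and of the 10 largest bounds (below it) in each direction, in arbitrary units on a log axis, with filled circles for the wild-type 3-ss array and open circles for the wild-type 90% epiboly array. The grey area lies under the floor of 32.4; genes below the dashed line have 1 circle in it, as sox32 with 22.1 at 3-ss and 735 at 90% epiboly.

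Gene groups were described with 33 lists of genes known for a tissue or pathway, some of which share members. The lowest median of these lists was that of Nodal signalling, the organizer and the prechordal plate. Of these, 0 of the 23 measured members were at least 2-fold higher and 13 were lower by as much, and the median log2 ratio was -1.18 (all measured genes: 0.02). Beside gsc, lft1, lft2 and admp, the decreases were foxa2 (246 at 3-ss, 1181 at 90% epiboly, 4.804-fold lower), a forkhead factor of axial mesoderm and endoderm, and the chemokine receptor cxcr4a (3.91-fold lower). The BMP and Wnt modulators szl (3.20-fold lower), bambia (2.64-fold lower), sfrp1a (2.57-fold lower) and frzb (2.27-fold lower) were lower. So were the Nodal co-receptor tdgf1 (2.45-fold lower), otx2b (2.27-fold lower) and the BMP antagonist chrd (2.04-fold lower). Nodal ligands were already low, with ndr2 (47.4 at 3-ss, 84.6 at 90% epiboly) and ndr1 (35.6 at 3-ss, 14.9 at 90% epiboly). Of the members that did not pass 2-fold, the homeobox gene hhex measured 227 at 3-ss and 163 at 90% epiboly, and the BMP antagonist nog1 217 at 3-ss and 181 at 90% epiboly. The Wnt antagonist dkk1b measured 581 at 3-ss and 691 at 90% epiboly, and fsta, which encodes follistatin, 1001 at 3-ss and 1387 at 90% epiboly.

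Early zygotic and pluripotency genes, most of them for transcription factors, were mostly lower or level. Of these, 0 of the 26 measured members were at least 2-fold higher and 11 were lower by as much. The median log2 ratio was -0.61. For pou5f3 the signal was 1277 at 3-ss and 5473 at 90% epiboly, 4.28-fold lower. The ventral repressors ved and vox, homeobox targets of BMP signalling, measured 748 and 2069 at 3-ss, against 3528 and 4467 at 90% epiboly. This made ved 4.71-fold lower and vox 2.16-fold lower, and vent, the third gene of this family, was near the floor at both stages (44.3 at 3-ss, 54.7 at 90% epiboly). Of the genes that act with Pou5f3 to open the zygotic genome, nanog was 2.21-fold lower from a signal that was already low (38.01 at 3-ss, 83.9 at 90% epiboly), while sox19b was level (866 at 3-ss, 865 at 90% epiboly). The Nodal effector foxh1 was 2.29-fold lower, the Krüppel-like factor klf2a 3.24-fold lower and the peptide ligand apela 2.59-fold lower. The Hairy-related repressor her3, a neural target of Pou5f3, measured 989.7 at 3-ss and 2171 at 90% epiboly (2.19-fold lower). The highest member was foxd3, with 1192 at 3-ss and 765 at 90% epiboly, a gene that is later expressed in neural crest. Maternal and germ plasm transcripts were lower or level too: 0 of the 22 measured members were at least 2-fold higher and 5 were lower by as much, and the median log2 ratio was -0.57. The log2 ratios of all measured members lay between -1.43 and -0.12. The lower members were the egg coat gene zp3b (163 at 3-ss, 439 at 90% epiboly, 2.697-fold lower), and the nucleoplasmin npm2b (2.31-fold lower). They also took in the linker histone h1m (2.21-fold lower), zp3c (at least 2.105-fold lower) and the germ cell helicase ddx4 (2.09-fold lower). The germ cell gene nanos3 measured 634 at 3-ss and 797 at 90% epiboly. The zp3 copies are close relatives, and their probe sets may read one another.

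Endodermal and yolk genes went in opposite directions within one list, with 10 of the 29 measured members at least 2-fold higher, 7 lower by as much and a median log2 ratio of 0.71. The decreases were mostly regulators and receptors of endoderm, namely sox32, sox17, foxa2 and cxcr4a as above, and hnf4a (51.9 at 3-ss, 132 at 90% epiboly, 2.55-fold lower) and gata6 (2.14-fold lower). Most increases were of genes for secreted lipid and plasma proteins, which the yolk syncytial layer makes in abundance. Apolipoprotein genes stood out, with apoa2 (14809 at 3-ss, 5330.4 at 90% epiboly, 2.78-fold higher), apobb.1 (12615 at 3-ss, 5514 at 90% epiboly, 2.29-fold higher), apoba 4.01-fold higher, apoa4b.1 2.57-fold higher and apoa4a 7.38-fold higher. Some apolipoprotein genes have close copies, and their probe sets may read one another. The protease inhibitor serpina1l measured 11704 at 3-ss and 3848 at 90% epiboly (3.04-fold higher) and the retinol carrier rbp4 1087 at 3-ss and 239 at 90% epiboly (4.56-fold higher). Other bright genes of the list changed little, since apoeb measured 19806 at 3-ss and 20571 at 90% epiboly and apoc1 16006 at 3-ss and 16598 at 90% epiboly. The microsomal transfer protein gene mttp, which acts in lipoprotein assembly, was 2.83-fold lower (131 at 3-ss, 371 at 90% epiboly).

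Axial mesoderm held changes in both directions. Of notochord and axial genes, 7 of the 23 measured members were at least 2-fold higher and 4 were lower by as much, and the median log2 ratio was 0.48. Type II collagen col2a1a, a main component of the notochord sheath, measured 290.0 at 3-ss and 40.4 at 90% epiboly (7.17-fold higher). The caveola gene cav1 measured 572 at 3-ss and 103 at 90% epiboly (5.57-fold higher) and the secretory coat gene sec23a was 2.06-fold higher. Other matrix genes did not pass 2-fold, as the laminin chains lamb1a (4720.4 at 3-ss, 4102 at 90% epiboly) and lamc1 (747 at 3-ss, 722 at 90% epiboly). Of the early notochord factors the T-box gene tbxta measured 702 at 3-ss and 1476 at 90% epiboly (2.103-fold lower) while noto (797 at 3-ss, 1402 at 90% epiboly) did not pass 2-fold. The Hedgehog ligands differed from each other, with shhb (56.6 at 3-ss, 227 at 90% epiboly, 4.02-fold lower) and shha (330.2 at 3-ss, 393 at 90% epiboly, 1.19-fold lower).

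Genes of the presomitic mesoderm and its segmentation clock were mostly lower or level (1 of the 33 measured members at least 2-fold higher, 11 lower by as much and a median log2 ratio of -0.22). The oscillating repressors her1 and her7 measured 135 and 234 at 3-ss, against 564 and 688 at 90% epiboly, so her1 was 4.17-fold lower and her7 2.94-fold lower. The Notch feedback inhibitor nrarpb was 4.16-fold lower, the somite polarity gene mespaa 2.77-fold lower, the retinoic acid synthase aldh1a2 2.61-fold lower, tbx16l 2.15-fold lower, fgf8a 2.07-fold lower and foxc1a 2.05-fold lower. Other genes of the tissue did not pass 2-fold. The bHLH factor msgn1, which defines it, was bright (12524 at 3-ss and 11362 at 90% epiboly), as was lfng (4343 at 3-ss and 4242 at 90% epiboly), and tbx6 measured 609 at 3-ss and 943 at 90% epiboly. Of the caudal homeobox genes cdx1a was 2.60-fold lower, and cdx4 measured 7229 at 3-ss and 11064 at 90% epiboly. The single increase past 2-fold was the fibronectin receptor subunit itga5 (97.2 at 3-ss, 44.5 at 90% epiboly, 2.19-fold higher), and fn1b, a fibronectin, measured 1299 at 3-ss and 683 at 90% epiboly.

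In the muscle list 9 of the 24 measured members were at least 2-fold higher and 1 was lower by as much, and the median log2 ratio was 0.58. A further 13 members, among them ckma, mylpfa and myf6, were under the floor at both stages. Next to acta1a and tnnc2.2, tropomyosin tpma measured 202 at 3-ss and 48.0 at 90% epiboly (4.196-fold higher) and the myosin light chain myl10 2200.5 at 3-ss and 684 at 90% epiboly (3.22-fold higher). Cardiac-type actin actc1b measured 449.9 at 3-ss and 182 at 90% epiboly (2.47-fold higher) and desmin desma was 2.56-fold higher. Other contractile genes did not pass 2-fold, such as the actin actc1a (4517 at 3-ss, 4255 at 90% epiboly), mylz3 (74.7 at 3-ss, 79.6 at 90% epiboly), the troponin T gene tnnt3b (123 at 3-ss, 112 at 90% epiboly) and titin ttn.2 (99.5 at 3-ss, 62.8 at 90% epiboly). The differentiation factor myog measured 70.5 at 3-ss, against 6.44 at 90% epiboly (at least 2.17-fold higher). The determination genes did not share this increase, since myf5 measured 938 at 3-ss and 1092 at 90% epiboly and the myod1 probe set 73.9 at 3-ss and 149 at 90% epiboly (2.02-fold lower). The myosin chaperone gene unc45b measured 6231 at 3-ss and 4445 at 90% epiboly, and its partner hsp90aa1.1, which is also a heat shock gene, 21142 at 3-ss and 10549 at 90% epiboly (2.004-fold higher).

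In lateral mesoderm several regulators of blood and vessels were higher, with 9 of the 25 measured members at least 2-fold higher, 3 lower by as much and a median log2 ratio of 0.15. Beside tal1, its partner lmo2 measured 394 at 3-ss and 67.4 at 90% epiboly (5.85-fold higher) and the erythroid factor gata1a 109 at 3-ss, against 3.26 at 90% epiboly (at least 3.37-fold higher). The endothelial ETS gene fli1 was 3.27-fold higher, myb 2.18-fold higher and the leukocyte actin regulator coro1a 3.10-fold higher. A globin gene, hbae3, measured 252 at 3-ss and 105 at 90% epiboly (2.405-fold higher), although globin copies are alike and the probes may not separate them. Several other regulators and vessel genes of the list did not pass 2-fold. Their log2 ratios included -0.69 for gata2a, -0.25 for flt4, 0.10 for spi1b, 0.23 for ets1 and 0.58 for kdrl. Genes of mature blood, such as alas2, hbbe2 and mpx, were under the floor at both stages, as were the regulators klf1 and runx1. Lower were lcp1 (348 at 3-ss, 1474 at 90% epiboly, 4.24-fold lower), which encodes an actin-bundling protein, drl (3.23-fold lower), a zinc finger gene of early lateral mesoderm, and the carbonic anhydrase gene cahz (2.44-fold lower). Of intermediate mesoderm and heart genes, 5 of the 17 measured members were at least 2-fold higher and 3 were lower by as much, and the median log2 ratio was -0.01. The T-box gene tbx2b measured 797 at 3-ss and 112 at 90% epiboly (7.10-fold higher). The bHLH gene hand2, which acts in heart precursors, measured 1049 at 3-ss and 459 at 90% epiboly (2.28-fold higher) and the Notch ligand jag2b 551 at 3-ss and 237 at 90% epiboly (2.33-fold higher). The pronephros genes pax2a (702 at 3-ss, 714 at 90% epiboly) and pax8 (34.1 at 3-ss, 34.1 at 90% epiboly, near the floor) were level. The heart muscle genes myl7, tnnt2a and nkx2.5 were under the floor at both stages.

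Genes of the neural crest and the border of the neural plate changed in both directions (5 of the 32 measured members at least 2-fold higher, 8 lower by as much and a median log2 ratio of -0.19). The largest ratios were those of sox9b (2119 at 3-ss and 93.2 at 90% epiboly) and sox10 (874 at 3-ss and 54.7 at 90% epiboly), and snai2, a zinc finger repressor of migrating crest, was 3.04-fold higher (1031 at 3-ss, 339 at 90% epiboly). Another sox9b probe set was dim, with 34.9 at 3-ss and 14.1 at 90% epiboly. Also higher was the Distal-less gene dlx4a (161 at 3-ss, 68.2 at 90% epiboly, 2.36-fold higher). The crest genes crestin (1720.5 at 3-ss, 1219 at 90% epiboly) and foxd3 did not pass 2-fold, and the pigment cell gene mitfa was low (47.7 at 3-ss, 14.6 at 90% epiboly). The zinc finger genes zic1, zic2a and zic2b, which mark dorsal neural plate and its border, were 2.49-fold lower, 2.29-fold lower and 2.77-fold lower. The brightest of them, zic2b, measured 2263 at 3-ss and 6268 at 90% epiboly. Zic genes outside this list did not share the decrease, with log2 ratios of 1.22 for zic5, 1.34 for a zic6 probe set and -0.06 for zic4. The AP-2 gene tfap2c was 2.01-fold lower, while tfap2a measured 3653 at 3-ss and 4721 at 90% epiboly and the border gene msx1b 1474 at 3-ss and 1641 at 90% epiboly. Further decreases were twist1a (70.29 at 3-ss, 184 at 90% epiboly, 2.61-fold lower) and the receptor gene ednraa (at least 2.37-fold lower).

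Placodal and epidermal genes held 1 decrease between them, the ventral repressor ved of the epidermal list. In the placode list 5 of the 19 measured members were at least 2-fold higher and 0 were lower by as much, and the median log2 ratio was 0.07. The increases included the Distal-less genes dlx4b (392 at 3-ss, 90.6 at 90% epiboly, 4.33-fold higher) and dlx5a (439.8 at 3-ss, 129.9 at 90% epiboly, 3.39-fold higher), the claudins cldna and cldnb and the stress-responsive atf3 (7.05-fold higher). Other placode genes did not pass 2-fold, with eya1 (207 at 3-ss, 106 at 90% epiboly) and dlx3b (609.6 at 3-ss, 785 at 90% epiboly). Among keratins, periderm and epidermal genes 9 of the 56 measured members were at least 2-fold higher and 1 was lower by as much, and the median log2 ratio was 0.07. Keratins themselves were bright and level, with krt4 (27052 at 3-ss, 22580.0 at 90% epiboly), krt5 (17776 at 3-ss, 16907 at 90% epiboly) and krt8 (23549.8 at 3-ss, 26547 at 90% epiboly). Genes of junctions and membranes were prominent among the increases, although other junction genes of the list did not pass 2-fold. The latter had log2 ratios of -0.55 for cldne, -0.52 for cldnf, -0.46 for pkp3a and 0.18 for cdh1. The claudin cldni measured 3809 at 3-ss and 459 at 90% epiboly (8.31-fold higher) and cldnb 3997 at 3-ss and 1851 at 90% epiboly (2.16-fold higher). The annexin partner s100a10b measured 1593 at 3-ss and 319 at 90% epiboly (4.99-fold higher), ahnak was 3.67-fold higher, and the ictacalcin gene icn2 2.27-fold higher. The carbonic anhydrase ca2, which marks ionocytes among other cells, was 2.45-fold higher (1339 at 3-ss, 547 at 90% epiboly). The basal epidermal factor tp63 measured 1059 at 3-ss and 1507 at 90% epiboly. In the hatching gland 3 of the 12 measured members were at least 2-fold higher and 3 were lower by as much, and the median log2 ratio was -0.21. The disulphide isomerase agr2 measured 115 at 3-ss and 31.7 at 90% epiboly (at least 3.54-fold higher), and the gland's Krüppel-like factor klf17 921 at 3-ss and 1253 at 90% epiboly.

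In the neural plate the anterior genes changed in both directions. Of forebrain, eye field and midbrain genes, 8 of the 37 measured members were at least 2-fold higher and 11 were lower by as much, and the median log2 ratio was -0.46. Several early anterior genes were lower: hesx1 measured 126 at 3-ss and 916 at 90% epiboly (7.29-fold lower) and six7 443 at 3-ss and 1523 at 90% epiboly (3.44-fold lower). The Iroquois gene irx7 measured 1153 at 3-ss and 3739 at 90% epiboly (3.24-fold lower), the Wnt target sp5l was 2.92-fold lower, foxb1a 2.47-fold lower and otx2a 2.32-fold lower. The increases included genes of eye, telencephalon and diencephalon, such as mab21l2 (343 at 3-ss and 56.6 at 90% epiboly, 6.06-fold higher), irx3a (4.39-fold higher) and pax6a (845 at 3-ss and 215 at 90% epiboly, 3.94-fold higher). The retinal homeobox gene rx2 (3.39-fold higher), emx2 (2.73-fold higher) and six3a (2.19-fold higher) belonged to them too. Other forebrain genes did not pass 2-fold. The eye field gene rx3 measured 2154 at 3-ss and 2954 at 90% epiboly, fezf2 307 at 3-ss and 429 at 90% epiboly, six3b 518 at 3-ss and 654 at 90% epiboly and pax6b 413 at 3-ss and 404 at 90% epiboly. At the midbrain-hindbrain boundary 3 of the 22 measured members were at least 2-fold higher and 1 was lower by as much, and the median log2 ratio was -0.15. Next to en2b, en2a measured 211 at 3-ss and 103 at 90% epiboly (2.05-fold higher) and gbx2, which sets the hindbrain side, 637 at 3-ss and 205 at 90% epiboly (3.11-fold higher). The genes that establish the boundary were level or lower, with pax2a as given above and wnt1 (47.5 at 3-ss, 54.9 at 90% epiboly). The Hairy-related her5 measured 762 at 3-ss and 1183 at 90% epiboly and fgf8a 529 at 3-ss and 1092 at 90% epiboly (2.07-fold lower).

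Hindbrain genes were often higher (13 of the 37 measured members at least 2-fold higher, 6 lower by as much and a median log2 ratio of 0.44). Of the increases 6 were Hox genes. The zinc finger gene egr2b, which defines alternate rhombomeres, measured 929 at 3-ss and 123 at 90% epiboly (7.57-fold higher), and its paralogue egr2a was 3.68-fold higher. The orphan nuclear receptors nr2f2 (721 at 3-ss and 91.4 at 90% epiboly, 7.89-fold higher), nr2f5 (4425 at 3-ss and 1550.4 at 90% epiboly, 2.85-fold higher) and nr2f1a (2.3-fold higher) were higher together. Retinoic acid enzymes went apart. The synthase aldh1a2 measured 654 at 3-ss and 1709 at 90% epiboly (2.61-fold lower) and the degrading enzyme cyp26a1 2142 at 3-ss and 5027 at 90% epiboly (2.35-fold lower). By contrast its hindbrain relative cyp26b1 measured 256 at 3-ss and 91.5 at 90% epiboly (2.79-fold higher). Of the binding protein genes crabp2b was 2.37-fold lower (969 at 3-ss, 2291 at 90% epiboly), and crabp2a measured 2347 at 3-ss and 1311 at 90% epiboly.

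Hox genes had the highest median of the 33 lists. Of 39 measured Hox genes 18 were at least 2-fold higher and 0 lower, with a median log2 ratio of 0.91 and a range of -0.71 to 2.86. The largest were hoxa2b, which patterns the second arch and hindbrain (277 at 3-ss and 38.1 at 90% epiboly, 7.27-fold higher), and hoxb6a (231 at 3-ss and 50 at 90% epiboly, 4.61-fold higher). They were followed by hoxa10b (254 at 3-ss and 56.9 at 90% epiboly, 4.46-fold higher) and hoxb2a (341 at 3-ss and 79.6 at 90% epiboly, 4.28-fold higher). Position in the cluster did not order the changes. In paralogue groups 1 to 4, 6 of 12 passed 2-fold (median 1.00), in groups 5 to 8 4 of 12 (median 0.50) and in groups 9 to 13 8 of 15 (median 1.03). By cluster, all 5 measured hoxd genes were higher, with hoxd11a (196 at 3-ss, 56.6 at 90% epiboly, 3.46-fold higher) and hoxd4a (462 at 3-ss, 159 at 90% epiboly, 2.91-fold higher). In the hoxab cluster 4 of 5 genes were higher, whereas 2 of 8 did so in hoxca and none of 3 in hoxcb. Some of these genes were near the floor at both stages. A 2-fold decrease from there could not be seen, and an increase only where the 3-ss signal rose well above the floor. In hoxcb these were hoxc11b (33.9 at 3-ss, 4.17 at 90% epiboly) and hoxc12b (24.8 at 3-ss, 45.0 at 90% epiboly). Also near it were hoxc4a, hoxa11a, hoxa13b, hoxa5a and hoxb4a, among others, so the lack of 2-fold decreases is limited by the floor. A low signal at 90% epiboly did not prevent an increase, as hoxa2b showed. Several bright Hox genes were already on at 90% epiboly and did not pass 2-fold, such as hoxc8a (2690.2 at 3-ss, 2389.7 at 90% epiboly), hoxb9a (1616 at 3-ss, 1146 at 90% epiboly) and hoxb1a (985 at 3-ss, 799 at 90% epiboly). The lowest ratio was that of hoxc6b (199 at 3-ss, 326 at 90% epiboly, log2 -0.71).

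**Figure D3:**
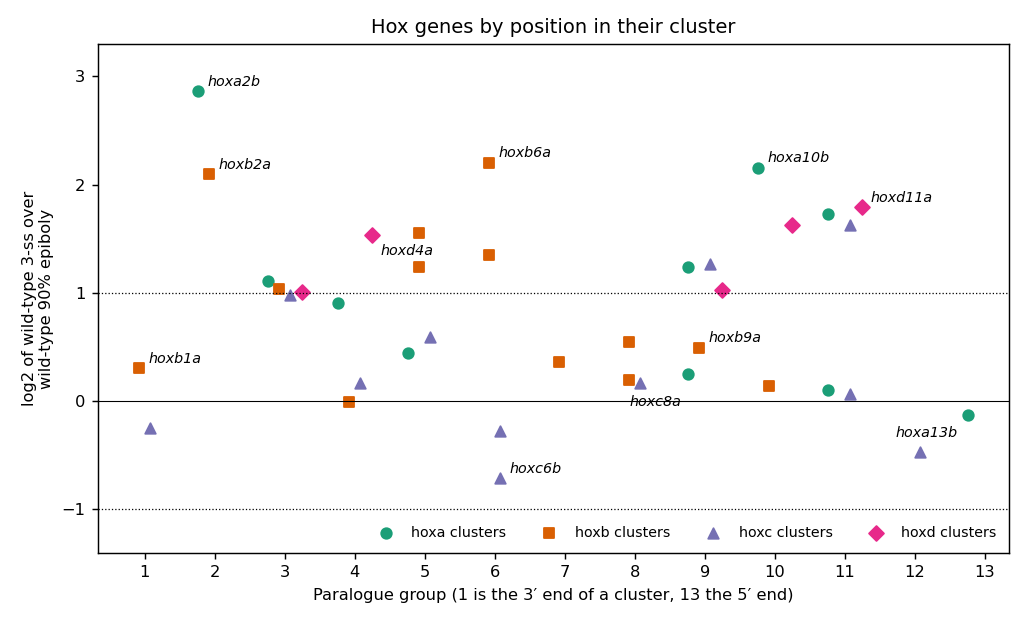
The log2 ratio of wild-type 3-ss over wild-type 90% epiboly (vertical axis) of each measured Hox gene, by its paralogue group within the cluster (horizontal axis), with 1 point per gene and a colour and shape for the hoxa, hoxb, hoxc and hoxd clusters. Dotted lines mark 2-fold, 18 of 39 points lie at or above the upper one and none at or below the lower one.

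Genes of neuronal differentiation were often higher, while most progenitor genes did not pass 2-fold. In the proneural and early neuron list 12 of the 30 measured members were at least 2-fold higher and 2 were lower by as much, and the median log2 ratio was 0.57. A further 16 members, among them gng3, elavl4 and stmn2a, were under the floor at both stages. The RNA-binding protein gene elavl3, a marker of postmitotic neurons, measured 597 at 3-ss and 197 at 90% epiboly (3.03-fold higher), and the motor and sensory neuron factor isl1a 383 at 3-ss and 122 at 90% epiboly (3.14-fold higher). The bHLH gene neurod1 measured 108 at 3-ss, against 2.901 at 90% epiboly (at least 3.32-fold higher) and the zinc finger gene myt1a 638 at 3-ss and 168 at 90% epiboly (3.80-fold higher). Likewise neurod4 was 2.75-fold higher and insm1b 2.84-fold higher. Other neuron genes of the list did not pass 2-fold. Among these, log2 ratios were -0.88 for stmn1b, -0.53 for sox11b, 0.12 for gap43, 0.33 for tlx3b and 0.43 for snap25a. The proneural gene neurog1, which acts upstream of neurod1 and neurod4, measured 477 at 3-ss and 868 at 90% epiboly and did not pass 2-fold. Next to prdm14, olig2 was 2.68-fold lower (167 at 3-ss, 448 at 90% epiboly). The Sox B genes that keep cells as progenitors had similar signals at both stages, with sox3 (6022 at 3-ss, 7013 at 90% epiboly) and sox19a (3767 at 3-ss, 4679 at 90% epiboly). Their relative sox2 measured 1447 at 3-ss and 2037 at 90% epiboly. The members of this family that promote differentiation were higher, sox21b (272 at 3-ss, 80.0 at 90% epiboly, 3.40-fold higher) and sox21a (455 at 3-ss, 187 at 90% epiboly, 2.43-fold higher).

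The Notch pathway and its Hairy-related repressors split by member (7 of the 29 measured members at least 2-fold higher, 5 lower by as much and a median log2 ratio of 0.23). Higher were hey1 (342 at 3-ss, 109 at 90% epiboly, 3.13-fold higher), hey2 (3.02-fold higher), the ligands jag1b (2.89-fold higher) and jag2b, and the neural targets her4.2 (2.27-fold higher), her4.5 (2.29-fold higher) and her2 (691 at 3-ss and 339 at 90% epiboly, 2.04-fold higher). The her4 genes are near-identical copies and cannot be separated with certainty. Lower were her1, her7, nrarpb and her3, and hes6 measured 2217 at 3-ss and 4434 at 90% epiboly (2-fold lower). The neural plate gene her9 stayed bright (3766 at 3-ss, 2767 at 90% epiboly), as did her6 (2473 at 3-ss, 3318 at 90% epiboly). The receptor notch2 measured 441 at 3-ss and 271 at 90% epiboly, notch3 432 at 3-ss and 447 at 90% epiboly and the ligand dlc 1168 at 3-ss and 1245 at 90% epiboly. No measured notch receptor gene, nor dla, dlb or dlc, passed 2-fold.

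Signalling pathways differed in the balance of increases and decreases. FGF genes gave 5 increases and 2 decreases among 25 measured (median 0.23), and junba, fosab and dusp5 are 3 of those increases. The ligands fgf8a and fgf3 were lower, fgf3 measuring 16.6 at 3-ss, against 68.7 at 90% epiboly (at least 2.12-fold lower). Feedback targets of the pathway did not pass 2-fold: dusp6 measured 2021 at 3-ss and 2262 at 90% epiboly, spry4 859.9 at 3-ss and 724 at 90% epiboly and etv4 678 at 3-ss and 840.4 at 90% epiboly. In the Wnt list 3 of the 33 measured members were at least 2-fold higher and 7 were lower by as much, and the median log2 ratio was -0.37. The ligands wnt11 (689 at 3-ss and 112 at 90% epiboly, 6.17-fold higher) and wnt4 (3.89-fold higher) were higher. The targets sp5l and cdx1a were lower, as were the receptor genes fzd8b (2.79-fold lower) and ror2 (2.26-fold lower), and axin2, a direct target, measured 958 at 3-ss and 1236 at 90% epiboly. Of the BMP and TGF-beta genes 6 of the 49 measured members were at least 2-fold higher and 11 were lower by as much, and the median log2 ratio was -0.07. The ligand gdf6a measured 498 at 3-ss and 117 at 90% epiboly (4.25-fold higher) and bmp2b 548 at 3-ss and 1131 at 90% epiboly (2.07-fold lower). The related bmp4 was level (244 at 3-ss, 257 at 90% epiboly), the modulator twsg1b was 2.32-fold lower, and the target id1 measured 8893 at 3-ss and 6685 at 90% epiboly. Floor plate and Hedgehog genes gave 3 increases and 4 decreases among 18, with the co-receptors boc (2.49-fold higher) and cdon (2.47-fold higher) higher and shhb, foxa2, olig2 and nkx2.9 lower.

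Adhesion and matrix genes were higher more often than lower, with 14 of the 47 measured members at least 2-fold higher, 3 lower by as much and a median log2 ratio of 0.32. The increases included collagens, col2a1a being joined by col5a2a (at least 3.87-fold higher), the basement membrane collagen col18a1a (4917 at 3-ss and 1531 at 90% epiboly, 3.21-fold higher) and col1a2 (at least 2.87-fold higher). Second to col2a1a in the list was thrombospondin thbs4b (168 at 3-ss, 3.67 at 90% epiboly, at least 5.18-fold higher), and another increase was the laminin chain lama5 (2.65-fold higher). The cadherins cdh1 and cdh2 had nearly equal signals at the stages, cdh1 (2601 at 3-ss, 2292 at 90% epiboly) and cdh2 (2046 at 3-ss, 1975 at 90% epiboly). The integrin itgb5 was 4.82-fold lower (137 at 3-ss, 662 at 90% epiboly). Cilia genes changed little: among 19 measured members no gene was 2-fold higher, and the 3 that were lower were the laterality genes lft1, lft2 and sox17 of this list, with no axonemal gene among them.

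No measured ribosomal, respiratory chain or proteasome gene passed 2-fold, while the cell cycle median lay below that of all measured genes and the p53 response median above it. Cell cycle genes had a median log2 ratio of -0.38, with 2 of 46 at least 2-fold higher and 1 lower. The mitotic cyclin ccnb2 was the lower one (551 at 3-ss, 1277 at 90% epiboly, 2.32-fold lower), ccnb1 measured 2107 at 3-ss and 3731 at 90% epiboly and cdc20 920.2 at 3-ss and 1703 at 90% epiboly. For ccnb3 the brightest probe set had a log2 ratio of -0.82 and was not counted as lower, but other probe sets of that gene had -1.60, -1.48 and -1.07. Replication genes differed, and pcna (15646 at 3-ss, 14548 at 90% epiboly) and mcm5 (log2 ratio 0.06) were level. Others were lower without passing 2-fold, with log2 ratios of -0.74 for cdt1, -0.73 for rrm1 and -0.84 for gmnn. The members that were higher were the growth-arrest genes gadd45aa (3.57-fold higher) and btg1 (2.08-fold higher). The 69 measured ribosomal protein genes each had a log2 ratio between 0.07 and 0.60 (median 0.32), and none passed 2-fold. Respiratory chain genes had a median of 0.18 over 83 and proteasome genes of 0.02 over 45. The heat shock genes were bright at both stages, with hspa8 (28234 at 3-ss, 26769 at 90% epiboly), hsp90aa1.2 (26183 at 3-ss, 25140.0 at 90% epiboly) and hspb1 (30267 at 3-ss, 26807 at 90% epiboly). Their median was 0.09 over 31 genes, and 3 passed 2-fold, all higher: hspa1b (1631 at 3-ss and 343 at 90% epiboly, 4.76-fold higher), the co-chaperone dnaja1 (2.58-fold higher) and hsp90aa1.1. Genes of the p53 response had a median of 0.73 over 16, with gadd45aa, phlda3 (1052 at 3-ss and 395 at 90% epiboly, 2.66-fold higher), plk3 (2.14-fold higher) and the apoptosis gene bbc3 (2.07-fold higher) past 2-fold. The p53 inhibitor mdm2 measured 1122 at 3-ss and 594 at 90% epiboly. With both arrays labelled as heat-shocked, whether the stress and p53 values belong to the stage or to the response to heat at that stage cannot be told apart.

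Markers of late cell types were often under the floor at these stages. Of 36 genes of lens, globin, pancreas, pituitary, retina and liver on the array, 19 were under the floor at both stages, including insulin (ins), mbpa and fabp10a. Over all genes on the array 1381 of 8793 were. The other 17 of the list, among them prss1, cryaa, opn1mw1 and sst2, reached the floor at 1 stage or more. Whether such signals reflect expression of the gene was not tested. Past 2-fold were the fibrinogen chains fgb (535 at 3-ss, 37.5 at 90% epiboly) and fga (116 at 3-ss, 28.1 at 90% epiboly, at least 3.58-fold higher) and the glial filament gene gfap (141 at 3-ss, 22.6 at 90% epiboly, at least 4.34-fold higher).

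**Figure D4:**
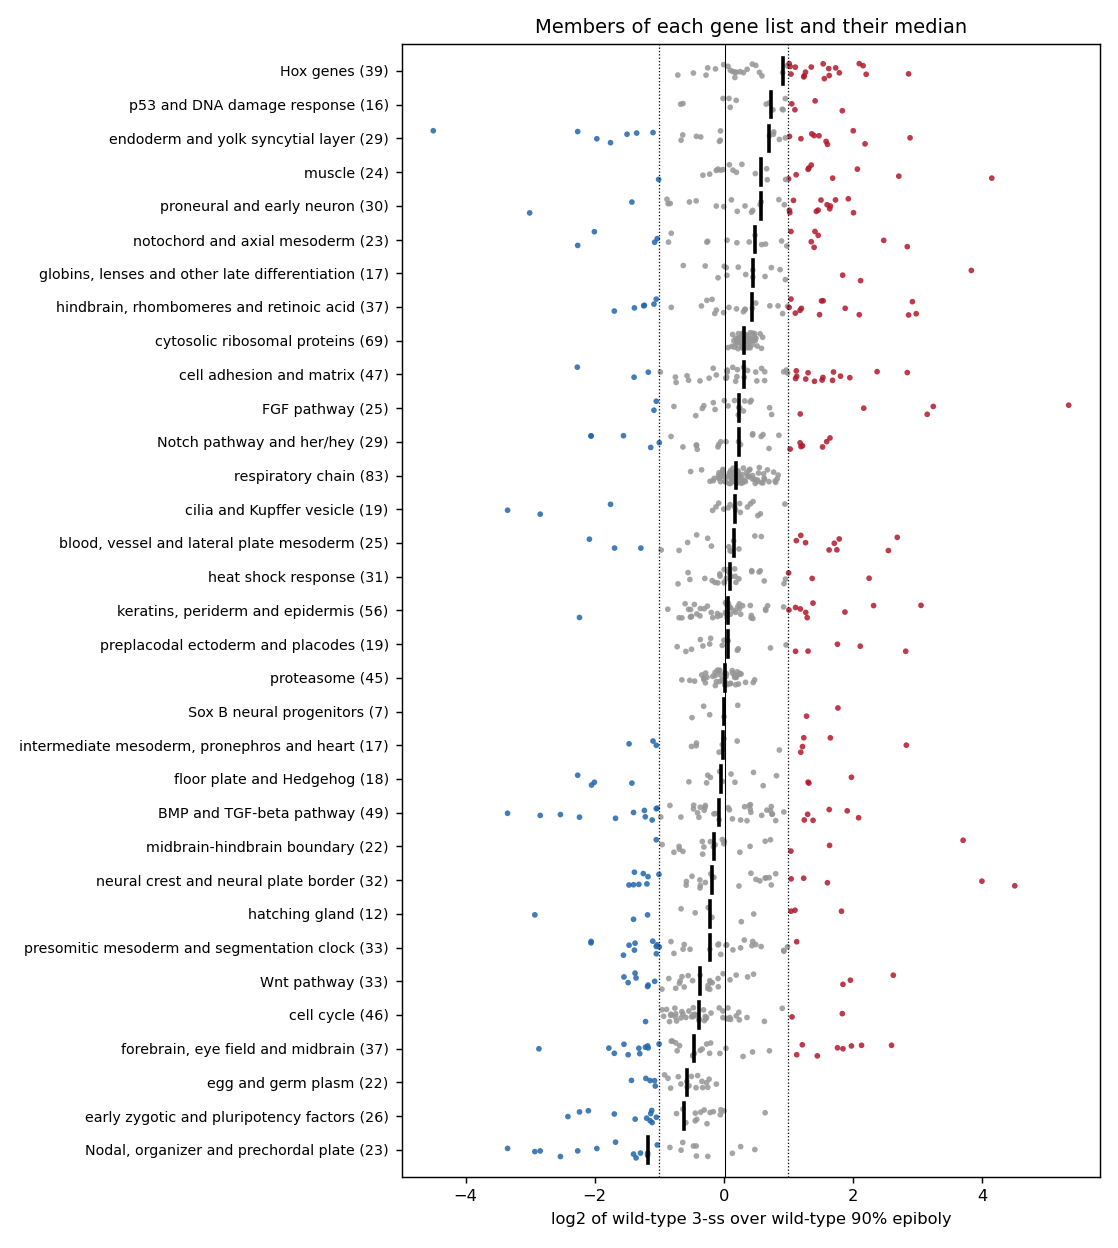
The log2 ratio of wild-type 3-ss over wild-type 90% epiboly (horizontal axis) of every measured gene of 33 gene lists, with 1 point per gene, the number of measured genes in parentheses and a thick bar at each list's median. Red points were at least 2-fold higher at 3-ss and blue points at least 2-fold lower; the medians run from -1.18 for the Nodal and organizer genes to 0.91 for the Hox genes, around 0.02 for all measured genes (thin line).

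The wild-type stage change could be set beside that of the en-pou5f3 siblings, which uses other arrays of the same crosses, again with 1 array per stage. In en-pou5f3 embryos 921 of 12010 measured probe sets (7.67%) were at least 2-fold higher at 3-ss and 381 (3.17%) at least 2-fold lower. For the 10100 probe sets that exceeded the floor on every array, the stage changes of the 2 genotypes had a Pearson r of 0.74 and a Spearman rho of 0.68, a description over probe sets that share their arrays and are not replicates. Of the 945 probe sets higher at 3-ss in wild-type embryos, 563 were also at least 2-fold higher in en-pou5f3 embryos (61.1% of those higher there, 60.1% of the 936 wild-type ones measured there). Another 169 stayed within 1.5-fold and 3 were at least 2-fold lower. Of the 469 probe sets lower in wild-type embryos, 188 were lower in en-pou5f3 embryos (49.3% of those lower there, 40.9% of the 460 measured). Another 148 stayed within 1.5-fold and 5 were at least 2-fold higher. As the wild-type probe sets were chosen past 2-fold and the en-pou5f3 ones were not, a smaller change in en-pou5f3 embryos is partly fixed by that choice.

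Stage changes that were large in both genotypes included junba, with a log2 ratio of 4.33 in en-pou5f3 embryos and 5.34 in wild-type embryos. They also included acta1a, with at least 4.8 in en-pou5f3 (a bound) and 4.15 in wild-type embryos, and sox10, with 3.72 in en-pou5f3 and 4.0 in wild-type embryos. Of the decreases, sox32 had a log2 ratio of -3.16 in en-pou5f3 and -4.50 in wild-type embryos (the wild-type value a bound), pnhd -3.11 in en-pou5f3 and -3.94 in wild-type embryos and admp -2.63 in en-pou5f3 and -2.53 in wild-type embryos. The pou5f3 probe set itself had log2 ratios of -1.95 in en-pou5f3 embryos and -2.1 in wild-type embryos, and whether it also reads the transgene was not tested. A gap between the genotypes was found for sox9b, which was 1.01 in en-pou5f3 embryos and 4.51 in wild-type embryos, with a signal at 90% epiboly of 1547 in en-pou5f3 embryos and 93.2 in wild-type embryos. A like pattern held for egr2b, with 671 at 3-ss and 700.0 at 90% epiboly in en-pou5f3 embryos, and tbx2b, with 657 at 3-ss and 755 at 90% epiboly. Both were already high at 90% epiboly in en-pou5f3 embryos and had log2 ratios of -0.06 and -0.20 there, against 2.92 and 2.83 in wild-type embryos. The neuronal genes elavl3 and isl1a had log2 ratios of 0.04 and -0.46 in en-pou5f3 embryos, against 1.60 and 1.65 in wild-type embryos. These ratios alone do not show at which stage the genotypes differed for elavl3 and isl1a. Among the decreases, gsc was -0.22 in en-pou5f3 embryos and -2.93 in wild-type embryos, with en-pou5f3 signals of 22.2 at 3-ss and 37.7 at 90% epiboly. For lft2 the ratio was -0.67 in en-pou5f3 and -3.35 in wild-type embryos, with en-pou5f3 signals of 25.2 at 3-ss and 51.7 at 90% epiboly. The en-pou5f3 ratios of gsc and lft2 are bounds. Their en-pou5f3 signals were already near the floor at 90% epiboly, against 685 and 386 in wild-type embryos. For her3 and hesx1 both en-pou5f3 signals were under the floor, so no stage change can be given there. None of these gaps between genotypes was tested, since each genotype has 1 array per stage.

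**Figure D5:**
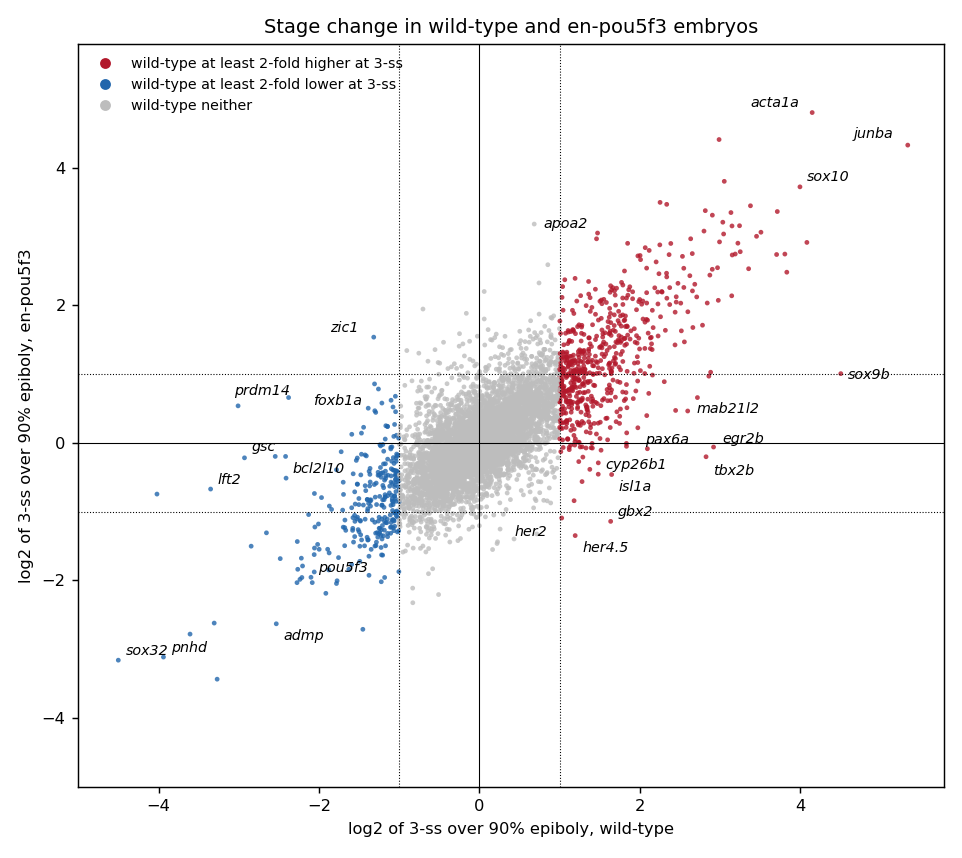
The log2 ratio of 3-ss over 90% epiboly of each gene in en-pou5f3 embryos (vertical axis) against wild-type embryos (horizontal axis), for genes measured in both, with 1 point per gene, 1 array per stage and genotype, and dotted lines at 2-fold. Colours give the wild-type change (red at least 2-fold higher at 3-ss, blue at least 2-fold lower); sox9b, egr2b and tbx2b lie far right of the diagonal, with wild-type ratios of 4.51, 2.92 and 2.83.

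Several probe sets for 1 gene allowed a comparison within the arrays. Among the genes whose brightest probe set was at least 2-fold higher, 98 had other measured probe sets, and of these 124 probe sets 107 were higher as well, 51 of them by at least 2-fold, and 0 were at least 2-fold lower. Among the genes that were lower, 42 of 46 other probe sets were lower too, 19 by at least 2-fold, and 1 was at least 2-fold higher. Their median log2 ratios were 0.82 and -0.85. The direction of a change was thus mostly shared between probe sets and its size less so.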

How the data were processed

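Wild-type and en-pou5f3 embryos were measured at 2 stages on Affymetrix zebrafish arrays, with 1 array per group and no replicate. The intensity values were deposited by the authors as MAS5 signals (version not given in the sources used here), 1 linear, background-corrected value per probe set, scaled to the same trimmed mean of 500.1 on each array, so a change in total RNA would not be seen. The supplementary methods speak of 12 arrays, of which 4 were analysed here. Signals of 115 of 15617 probe sets (names in AFFX) were left out. Remaining signals under 32.4 were set to that value, which 95% of 80 control signals do not exceed, and a log2 ratio of 3-ss over 90% epiboly was taken where at least 1 signal reached it. The floor is an estimate of background; between 71.3% and 74.4% of probe sets exceeded it on an array. Genes were named from the platform annotation with current symbols: 10802 probe sets had 1 symbol (10718 matched, 1 renamed), 135 several and 4680 were not listed in it, and a gene was represented by its brightest probe set over the wild-type arrays. No test was possible. Genes named are the 15 largest changes over the floor on both arrays and 10 largest bounds in each direction, up to 6 members of each list in each direction by size, and members named for their role. The members and lists were chosen with earlier results of these data known, and 6 lists after the values were seen. Alternatives were the floor, normalization, filter, shared probes, representative probe set and threshold. The calculation was tested on simulated data with changes only in probe sets far over the floor, so changes in dim signals were not tested. A planned search for promoter motifs was not run, as no promoter sequence was used here. Python 3.11.15, pandas 2.3.3, numpy 2.4.6 and matplotlib 3.10.9 were used.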

Additional observations from a re-analysis of the deposited data

Results flagged for a closer look

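Opposite stage changes of at least 2-fold in the 2 genotypes were found for 8 probe sets, and with 1 array per stage and genotype the difference was not tested. The log2 ratios of 3-ss over 90% epiboly were -1.14 in en-pou5f3 and 1.64 in wild-type embryos for gbx2 (3-ss and 90% epiboly signals 553 and 1220.5 in en-pou5f3 embryos, 637 and 205 in wild-type embryos), 1.54 in en-pou5f3 and -1.32 in wild-type embryos for zic1 (142 and 48.9 in en-pou5f3 embryos, 459 and 1143 in wild-type embryos), -1.35 in en-pou5f3 and 1.2 in wild-type embryos for her4.5 and -1.09 in en-pou5f3 and 1.03 in wild-type embryos for her2. For copg2, which encodes a vesicle coat subunit, they were at least 1.58 in en-pou5f3 (a bound) and -1.27 in wild-type embryos, from 1 dim probe set. Its signals were 21.3 at 90% epiboly in en-pou5f3 embryos, under the floor, and 34.5 at 3-ss in wild-type embryos, just over it. The brightest probe set of copg2 had 0.54 in en-pou5f3 and 0.72 in wild-type embryos. Of 3 probe sets without a gene name here, the first had log2 ratios of 1.51 in en-pou5f3 and -2.20 in wild-type embryos, the second 2.47 in en-pou5f3 and -2.11 in wild-type embryos and the third 1.16 in en-pou5f3 and -2.17 in wild-type embryos. The number of such probe sets depended on the floor and the threshold, being 35 without a floor, 218 with a floor taken from the median control signal, 77 at 1.5-fold and 1 at 3-fold.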

How the results depend on the processing

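The counts of probe sets higher and lower at 3-ss (945 and 469) moved by over 1.5 times under 4 of 11 alternatives: 1759 and 1224 with a floor taken from the median control signal, 2069 and 1428 at 1.5-fold, 366 and 101 at 3-fold, and 160 and 55 at 4-fold. More probe sets were higher than lower under all 11. Of the wild-type probe sets, those also higher in en-pou5f3 embryos numbered 563, and 859, 1274, 209 and 103 under these 4 settings, and those also lower 188, and 333, 665, 39 and 15 (alternatives chosen after seeing the data). The medians of the 33 gene lists shifted by at most 0.38 on the log2 scale over 10 settings, and 29 kept their sign. The other 4 had medians within 0.21 of 0: placodes, Sox B, hatching gland and proteasome. Larger shifts occurred among the lists added after the values were seen. The collagen median ran from 0.37 to 1.14 (main value 0.92) and that of the plasma proteins from 0.95 to 1.57 (main value 1.04). Of the values of named genes, 445 moved by less than the SD between probe sets, 51 by more and 3 changed sign, and 26 of the 51 came from adding the floor to both signals in place of setting low signals to it. The 51 values came from 36 results and the 445 from 52, where 1 result can fall in both. Not every gene named above was in this check. The sign changes were those of cops4, at 0.17 without probe sets of shared probes, and of fundc2, at 1.47 as the mean of its probe sets and 3.36 as the probe set with the largest change. No paired analysis was possible because each group has 1 array, and no replicate could be left out. The search for motifs in promoters was not run, and the number of arrays limits the precision of every value.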

Other observations

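Gene groups added after the values were seen showed several sets of increases. As the values were known when these 6 lists were written, their counts and medians may be partly fixed by that choice and only describe the data. Immediate early genes, which are transcribed within minutes of a stimulus, were often higher: 20 of the 35 measured members were at least 2-fold higher and 1 was lower by as much, and the median log2 ratio was 1.12. Beside junba, fosab, irf1b and dusp5, these were junbb (1555 at 3-ss, 189.6 at 90% epiboly, 8.204-fold higher), the stress factor atf3 (1109 at 3-ss, 157 at 90% epiboly, 7.05-fold higher), the nuclear receptor nr4a1 (215 at 3-ss, 35.5 at 90% epiboly, 6.06-fold higher), fosl2 (5.16-fold higher), ccn1 (4-fold higher), the cytokine inhibitor socs3b (3.94-fold higher), myca (3.54-fold higher) and jun (3.24-fold higher), while egr1 measured 40.6 at 3-ss and 25.5 at 90% epiboly and dusp1 2475 at 3-ss and 1845 at 90% epiboly. The one decrease was klf2a. In en-pou5f3 embryos 17 members of this group were at least 2-fold higher at 3-ss. Clotting, complement and carrier proteins of plasma were higher as well: 14 of the 27 measured members were at least 2-fold higher and 1 was lower by as much, and the median log2 ratio was 1.04. The fibrinogen chains fgb, fgg (506 at 3-ss, 72.6 at 90% epiboly, 6.97-fold higher) and fga were higher together, as were ambp, the precursor of a plasma protease inhibitor (202 at 3-ss, 20.3 at 90% epiboly, at least 6.21-fold higher), the complement gene c8b (5.86-fold higher), plasminogen plg (at least 3.13-fold higher) and vitronectin vtnb (3.11-fold higher), while a2m3a was 2.62-fold lower.

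Collagens and the machinery that folds secreted proteins also differed between the stages. Of collagen genes 7 of the 16 measured members were at least 2-fold higher and 0 were lower by as much, and the median log2 ratio was 0.92, with 276 at 3-ss and 37.6 at 90% epiboly for col15a1b (7.33-fold higher) and 127 at 3-ss and 24.1 at 90% epiboly for col9a2 (at least 3.92-fold higher) next to col2a1a. Of endoplasmic reticulum genes 6 of the 34 measured members were at least 2-fold higher and 0 were lower by as much, and the median log2 ratio was 0.49, and the calcium-binding chaperone calr measured 1174 at 3-ss and 333 at 90% epiboly (3.52-fold higher), the disulphide isomerase pdia4 1788 at 3-ss and 518 at 90% epiboly (3.45-fold higher) and hspa5 9677 at 3-ss and 4995 at 90% epiboly. Egg coat genes were lower or level, since of zona pellucida genes 0 of the 10 measured members were at least 2-fold higher and 3 were lower by as much, and the median log2 ratio was -0.93, the lower ones being zp3b, zp3.1 and zp3c. Among annexins 2 of the 13 measured members were at least 2-fold higher and 0 were lower by as much, and the median log2 ratio was 0.58, and anxa2a, the partner of s100a10b, measured 696 at 3-ss and 267 at 90% epiboly (2.60-fold higher).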
